A study of Mus musculus with 15 samples.

Results

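Axon guidance ligands and receptors were followed across a chemical conversion of mouse astrocytes. They comprised all rows of the deposited expression table named as a semaphorin, plexin, neuropilin, ephrin, Eph receptor, Slit, Robo, netrin, Dcc or Unc5 gene, which gave 69 members of 24346 gene symbols. Rows were matched by name, with no filter on expression, but the families were chosen with earlier results of these data known. RNA was sequenced from C57BL/6 brain cells in 5 groups of 3 libraries each. The groups were astrocytes (D0), neurons induced by chemicals and taken at day 4 (D4), day 8 (D8) or day 16 (D16), and primary neurons, abbreviated PN. The labels give neither the inducing chemicals nor the age of the animals or the brain region. The labels name no transgene, clone or pooling, and they do not say whether the libraries of a group came from separate cultures. P-values therefore measure only the spread between these libraries, which may be technical.

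Growing axons are steered by ligands that are secreted or fixed to neighbouring cells and by receptors on the growth cone. Secreted class 3 semaphorins act through neuropilins paired with class A plexins, whereas most membrane-bound semaphorins contact plexins directly. Ephrins signal in both directions with Eph receptor tyrosine kinases, and Slits repel axons through Robo receptors. Netrin-1 attracts axons through Dcc and repels them through Unc5 receptors. In the brain, astrocytes, vessels and meninges also make many of these cues, so none of the families is restricted to neurons.

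Levels are in FPKM, a unit that divides by transcript length and library size. Changes are differences of log2(FPKM + 1) given ± SE, a scale on which changes of lowly expressed genes come out too small. Any change was called when its adjusted p (limma, Benjamini-Hochberg over all 13983 genes tested) was below 0.05 and it reached at least 1 on the log2 scale. Where leaving out 1 library or another scaling of the libraries ended a call, the change found there is given where that gene is described. FPKM totals ran from 548309 to 787080 per library. Relative depth, read from the steps of low values, ran from 0.683 to 1.97, with PN at 1.64 to 1.97. The neuron markers (10 genes, 8 higher at D16 than at D0 and none lower) summed to 1029 to 1075 FPKM in D16 libraries and 3258 to 4534 FPKM in PN libraries, against 285 to 397 FPKM in D0 libraries. They summed to 570 to 652 FPKM at D4 and 812 to 937 FPKM at D8, and at D4 7 were higher than at D0 and Stmn2 was lower. Of 4 genes of young migrating neurons, Sox11 was at 54.0 FPKM at D16, whereas Dcx, Neurod6 and Tbr1 averaged 0.318, 0.0279 and 0.0609 FPKM. The astrocyte markers (8 of 8 lower at D16 than at D0) summed to 44.4 to 54.5 FPKM at D16 and 125 to 214 FPKM in PN, against 688 to 1563 FPKM at D0. At D4 they still summed to 445 to 521 FPKM (6 of 8 lower than at D0), with Gfap at 417, 349.8 and 429 FPKM and not called, and at D8 to 93.3 to 109 FPKM (8 of 8 lower). The D0 libraries also held fibroblast or mural markers (8 genes, 7 tested and 5 lower at D16 than at D0, summing to 2006 to 8071 FPKM, mostly Acta2 and Tagln). These summed to 6.29 to 11.4 FPKM at D16 and 4.66 to 81.6 FPKM in PN, where PN replicate 3 was the highest, and were already at 23.9 to 39.2 FPKM at D4 and 8.55 to 16.1 FPKM at D8. The 8 oligodendrocyte-lineage markers (5 tested, 1 higher and 2 lower at D16) summed to 10.98 to 12.2 FPKM at D16 and 23.1 to 47.2 FPKM in PN, against 239 to 391 FPKM at D0. The 5 ependymal markers (4 tested, 2 lower at D16 than at D0) summed to 6.53 to 7.77 FPKM at D16 and 24.4 to 26.9 FPKM in PN, against 109 to 212 FPKM at D0. The 7 microglia or macrophage markers (3 tested, 2 lower at D16 than at D0 and 3 lower at D16 than in PN) summed to 0.0578 to 0.935 FPKM at D16 and 5.56 to 10.49 FPKM in PN, against 1.11 to 18.96 FPKM at D0. The part of these cell types and of depth in the changes below was not tested, and in bulk RNA fewer cells of a type and less RNA per cell cannot be told apart.

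The members changed in both directions on every day. At D16, 21 of the 63 members tested were higher than at D0, among them Unc5a, Efna2, Robo1 and Sema4f, and 16 were lower, among them Ntn4, Sema3b, Sema3f and Slit2. Over all genes 35.3% were called in this comparison (16.6% higher and 18.7% lower), against 58.7% of the members (33.3% higher and 25.4% lower). At D4, 19 members were higher and 14 lower, with 27.8% of all genes called (13.6% higher and 14.2% lower). At D8, 18 were higher and 14 lower, with 32.4% of all genes called (15.5% higher and 16.9% lower). In PN, 29 members were higher and 16 lower than at D0, with 41% of all genes called (17.1% higher and 23.9% lower). The median member change at D16 was -0.079 and the median over all genes -0.0063. In PN the medians were 0.97 and -0.12. The 6 members that were not tested, Epha1, Ntn5, Plxnb3, Robo3, Robo4 and Sema3g, reached at most 1.34 FPKM in every library. Of the 63 tested, 11 had no D0 library at 1 FPKM and passed through the induced or PN groups. Of these, 9 were called higher at D16, a direction that their passing the filter favours.

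Called higher on all 3 days were 16 members, and 12 were lower on all 3 days. The shares of all genes with such patterns over the days were not counted, so these counts describe the members only. Called at D16 but not yet at D4 were 5 that were higher (Dcc, Epha6, Plxna3, Plxna4 and Sema5a) and 4 that were lower (Efna1, Efnb1, Efnb2 and Epha2). Another 5 were called at D4 but not at D16 (Efna5, Plxna1, Sema3d, Sema4a and Sema4c). Of these calls, those of Epha6 and Plxna3 at D16 and of Efna5, Plxna1, Sema3d and Sema4a at D4 were lost in some settings, given with each gene. Among the members called on all 3 days, Epha10, Plxnc1, Plxnb2 and Sema7a lost the D4 call in at least 1 setting. Sema3a and Sema3e lost the call on all 3 days in at least 1 setting, Plxnb1 at D8 and D16, and Sema5b at D16. On the ligand side (35 members, 33 tested) 8 were higher and 13 lower at D16. On the receptor side (34 members, 30 tested) 13 were higher and 3 lower. This split between ligands and receptors was not tested. In PN the receptors counted 18 higher and 4 lower, and the ligands 11 higher and 12 lower, against D0. The shares over all genes were 16.6% higher and 18.7% lower at D16, and 17.1% higher and 23.9% lower in PN.

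The upstream sequences of 3 members are shown because they are the genes of the largest called rises at D16 whose annotated gene start lay at the start of a RefSeq promoter window (GRCm38.p6). Each line gives the 250 bases before the start, 5′ to 3′ on the strand of the gene. Capitals mark matches on either strand to 3 motifs: the E-box CAGNTG bound by neuronal bHLH factors, the cyclic AMP response element TGACGTCA and the GC box GGGCGG.
Unc5a: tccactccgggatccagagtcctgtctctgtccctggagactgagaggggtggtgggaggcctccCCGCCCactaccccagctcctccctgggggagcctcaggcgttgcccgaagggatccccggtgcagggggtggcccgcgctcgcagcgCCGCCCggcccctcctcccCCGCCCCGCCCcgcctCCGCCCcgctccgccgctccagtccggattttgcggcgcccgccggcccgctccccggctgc
Efna2: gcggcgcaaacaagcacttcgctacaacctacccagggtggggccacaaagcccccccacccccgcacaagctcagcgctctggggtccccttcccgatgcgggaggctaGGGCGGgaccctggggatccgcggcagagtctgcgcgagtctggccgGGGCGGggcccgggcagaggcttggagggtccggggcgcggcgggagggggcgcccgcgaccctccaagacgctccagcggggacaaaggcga
Sema4f: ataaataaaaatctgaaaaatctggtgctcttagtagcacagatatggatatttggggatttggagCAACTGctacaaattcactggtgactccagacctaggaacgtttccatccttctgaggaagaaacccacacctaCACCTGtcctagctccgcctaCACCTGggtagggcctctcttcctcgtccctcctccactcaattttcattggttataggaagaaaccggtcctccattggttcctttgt
The Unc5a window (chr13:54949161-54949410, plus strand) held 5 GC boxes, 2 of which share 1 base, and was 76.8% G or C. The Efna2 window (chr10:80179232-80179481, plus strand) held 2 GC boxes. The Sema4f window (chr6:82939770-82940019, minus strand) held 3 E-boxes and no GC box. Of the 59 members with a window, 72.9% held a GC box, against 32.7% of all 32851 windows. Each member entered with 1 window, the one nearest its annotated gene start, whereas every window of every gene entered the second share. The 2 sets are unlike and their difference was not tested, so it is not read as a trait of the members. For the E-box the shares were 39.0% of members and 44.8% of all windows, and for the cyclic AMP response element 1.69% and 1.55%. Among members called higher at D16, 14 of 17 windows held a GC box and 7 of 17 an E-box. Among those called lower, 11 of 14 held a GC box and 3 of 14 an E-box. A match describes letters in this window only.

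**Figure D1:**
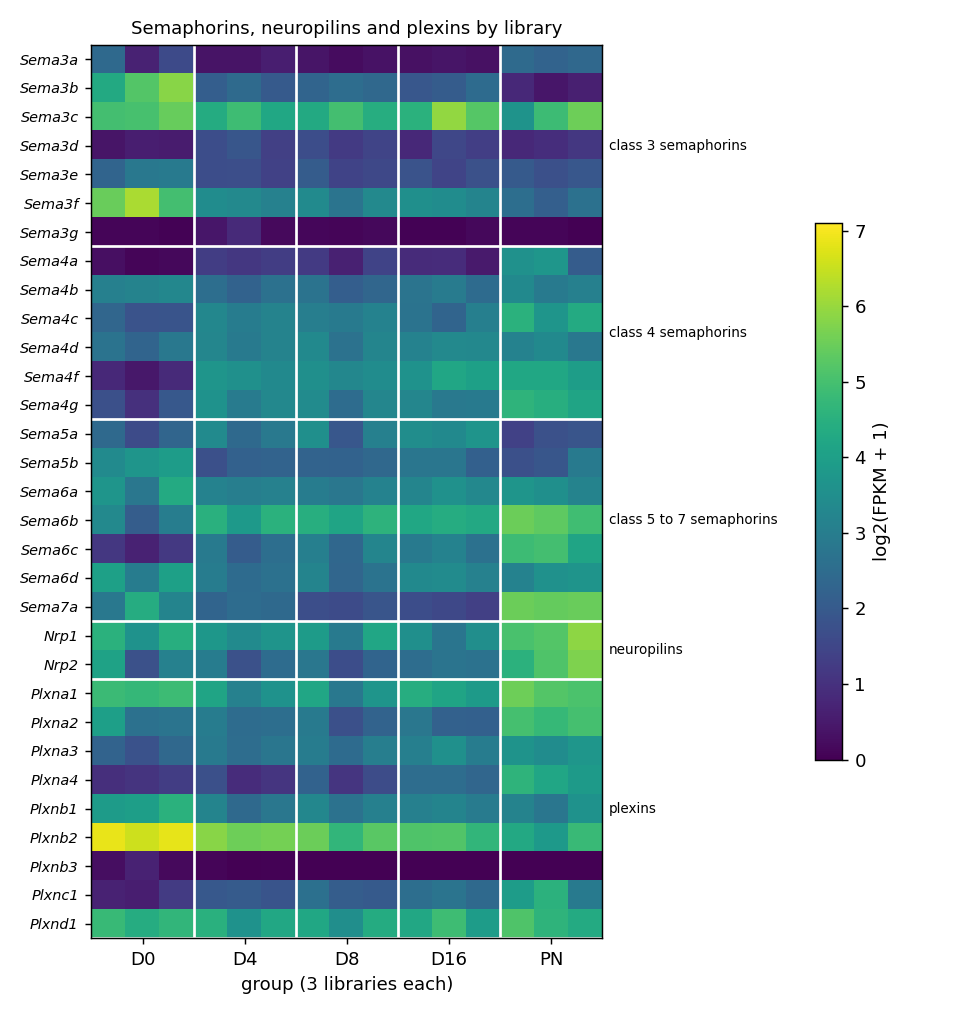
Each row is a semaphorin, neuropilin or plexin gene and each column 1 library, in 5 groups of 3 (D0, D4, D8, D16 and PN), and colour gives log2(FPKM + 1). Sema3b and Sema3f were brightest at D0, Sema4f was bright from D4 on, and Sema7a and Nrp2 were brightest in PN.

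Class 3 semaphorins are the secreted repellents of the family. Of 7 genes 6 were tested, and at D16 4 were lower than at D0 (Sema3a, Sema3b, Sema3e and Sema3f), with none higher. Over all genes 18.7% were lower and 16.6% higher in this comparison. Sema3b, a ligand of neuropilins, had 18.9, 35.5 and 56.0 FPKM at D0, 3.37, 4.45 and 3.01 at D4, 3.92, 4.83 and 4.25 at D8, 2.80, 3.18 and 4.54 at D16, and 0.750, 0.337 and 0.544 FPKM in PN. All induced libraries lay below all D0 libraries, and PN lay lower still. Its changes against D0 were -2.92 ± 0.29 at D4, -2.70 ± 0.29 at D8 and -2.96 ± 0.29 at D16 (adjusted p at D16 = 4.6e-07). Sema3f, which acts mainly through neuropilin-2, had 43.4, 72.3 and 30.8 FPKM at D0, 9.94, 9.20 and 7.75 at D4, 9.47, 5.71 and 9.10 at D8, 10.52, 9.89 and 8.29 at D16, and 4.90, 3.41 and 5.21 FPKM in PN. It fell to the same range on all 3 days, with changes of -2.24 ± 0.26 at D4, -2.40 ± 0.26 at D8 and -2.16 ± 0.26 at D16 (adjusted p at D16 = 4.1e-06). Sema3a, which collapses growth cones through neuropilin-1, had 4.39, 0.604 and 2.02 FPKM at D0, 0.299, 0.286 and 0.498 at D4, 0.313, 0.174 and 0.279 at D8, 0.240, 0.321 and 0.246 at D16, and 4.47, 3.75 and 4.26 FPKM in PN. The induced libraries reached at most 0.498 FPKM while D0 spread from 0.604 to 4.39 FPKM, and PN lay near the highest D0 library. The change at D16 was -1.23 ± 0.29, adjusted p = 0.0020, and it was not called without the highest D0 library (-0.80 without D0 replicate 1). At D4 the call was likewise lost (-0.70 without D0 replicate 1), as at D8 (-0.81 without D0 replicate 1).

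Sema3e, which binds plexin-D1 without a neuropilin, averaged 5.55, 2.03, 2.26 and 2.22 FPKM at D0, D4, D8 and D16, and 2.71 FPKM in PN. It was called lower at D16 (-1.01 ± 0.21), close to the threshold, and the change was -0.99 with libraries rescaled to an equal total, -0.93 without D0 replicate 2, -0.88 without D0 replicate 3 and -0.90 without D16 replicate 2. At D4 the change was -1.09 ± 0.21, but -0.97 without D0 replicate 3 and -0.99 without D4 replicate 3. At D8 it was -1.01 ± 0.21, but -0.93 without D0 replicate 2, -0.88 without D0 replicate 3, -0.88 without D8 replicate 2 and -0.94 without D8 replicate 3. Sema3c averaged 34.9, 22.0, 23.3 and 39.6 FPKM at D0, D4, D8 and D16, and 28.6 FPKM in PN and was not called in any comparison. It held 70.0% of the summed class 3 FPKM at D16 and 68.8% in PN, against 27.1% at D0, where Sema3f had the largest share (37.9%). Sema3d averaged 0.428, 2.16, 1.76 and 1.38 FPKM at D0, D4, D8 and D16, and 0.963 FPKM in PN and was called only at D4 (1.13 ± 0.21), but 0.77 with quantile normalization and 0.99 without D4 replicate 2.

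Class 4 semaphorins span the membrane and bind mainly class B plexins. At D16, 2 of 6 tested genes were higher than at D0 and none lower, and at D4 4 were higher. Over all genes 16.6% were higher and 18.7% lower at D16, and 13.6% were higher at D4. Sema4f, a postsynaptic-density semaphorin (chromosome 6, start 82911885, end 82939769, GENCODE vM21 on GRCm38), had 0.756, 0.361 and 0.808 FPKM at D0, 12.1, 10.9 and 9.36 at D4, 10.6, 8.73 and 9.99 at D8, 11.4, 17.5 and 15.4 at D16, and 17.7, 17.9 and 14.6 FPKM in PN. The 9 induced libraries all exceeded every D0 library, with 8.73 FPKM as the lowest, and the D16 libraries overlapped PN. Changes were 2.85 ± 0.18 at D4, 2.72 ± 0.18 at D8 and 3.25 ± 0.18 at D16 (adjusted p at D16 = 1.3e-09). Sema4g, a plexin-B2 ligand, had 2.30, 0.995 and 2.87 FPKM at D0, 11.3, 6.78 and 8.86 at D4, 9.67, 4.71 and 8.61 at D8, 8.59, 6.27 and 6.57 at D16, and 23.4, 20.9 and 16.5 FPKM in PN. It stood between D0 and PN on all 3 days, at 1.46 ± 0.28, adjusted p = 3.0e-04 against D0 and -1.38 ± 0.28, adjusted p = 4.7e-04 against PN. Sema4a, known also for its role in immune cells, had 0.220, 0.0647 and 0.115 FPKM at D0, 1.45, 1.23 and 1.45 at D4, 1.29, 0.570 and 1.67 at D8, 0.819, 0.881 and 0.418 at D16, and 11.1, 12.3 and 3.22 FPKM in PN. Its PN libraries stood above all others, and the D16 level was lower than PN (-2.38 ± 0.33, adjusted p = 1.9e-05), while D16 against D0 was not called (0.58 ± 0.33). At D4 it was called higher than D0 (1.07 ± 0.33, but 0.66 with quantile normalization). The microglia gene Aif1 was at 0.418, 0 and 0.760 FPKM at D16 and 3.63, 6.39 and 1.65 FPKM in PN. PN replicate 3 was the lowest PN library for both Aif1 and Sema4a. It was also the lowest for other members, such as Slit1, Plxnc1, Epha8 and Epha10, and the highest for Nrp1 and Nrp2, so this order is not particular to Sema4a. All 3 microglia or macrophage markers tested were lower at D16 than in PN, but only Aif1 was called higher in PN than at D0. The 7 listed markers summed to 1.11 to 18.96 FPKM at D0 and 5.56 to 10.49 FPKM in PN, whereas Sema4a was at most 0.220 FPKM at D0. The part of microglia in the Sema4a difference was not tested. Sema4c, a further plexin-B2 ligand, averaged 3.09, 7.89, 7.23 and 5.59 FPKM at D0, D4, D8 and D16, and 17.8 FPKM in PN. It was called higher at D4 (1.14 ± 0.24) and D8 (1.03 ± 0.24, but 0.94 with libraries rescaled to an equal total, 0.94 without D0 replicate 2, 0.95 without D0 replicate 3 and 0.97 without D8 replicate 3), but not at D16 (0.68 ± 0.24). Sema4b and the plexin-B1 ligand Sema4d were not called in any comparison, with group means of 4.31 to 8.09 and 5.17 to 8.64 FPKM.

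Classes 5 to 7 moved in both directions, with 3 of 7 genes higher and 2 lower at D16, against 16.6% and 18.7% of all genes. Sema6b and Sema6c are transmembrane semaphorins, and class 6 members signal through class A plexins. Sema6b had 9.16, 3.28 and 7.04 FPKM at D0, 21.7, 13.4 and 22.0 at D4, 20.8, 16.6 and 23.3 at D8, 17.7, 20.2 and 18.7 at D16, and 44.3, 39.4 and 29.4 FPKM in PN. Sema6c had 1.22, 0.593 and 1.24 FPKM at D0, 6.41, 3.15 and 4.90 at D4, 7.41, 4.17 and 8.43 at D8, 6.53, 7.92 and 5.28 at D16, and 28.5, 30.4 and 16.8 FPKM in PN. Both were higher than D0 on every day without overlap, and at D16 the changes were 1.49 ± 0.27, adjusted p = 2.3e-04 for Sema6b and 1.91 ± 0.28, adjusted p = 3.0e-05 for Sema6c. Against PN, Sema6c was lower at D16 (-1.76 ± 0.28, adjusted p = 6.9e-05), and Sema6b was not called (-0.94 ± 0.27).

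Sema5a, whose thrombospondin repeats set class 5 apart, had 4.36, 2.08 and 4.03 FPKM at D0, 9.63, 4.33 and 6.30 at D4, 10.7, 2.82 and 7.55 at D8, 10.1, 9.28 and 11.7 at D16, and 1.58, 2.36 and 2.68 FPKM in PN. It was higher at D16 than in D0 (1.38 ± 0.35, adjusted p = 0.0032) and than in PN (1.84 ± 0.35, adjusted p = 3.5e-04). Sema5b had 9.55, 11.9 and 14.1 FPKM at D0, 2.33, 3.65 and 3.83 at D4, 3.77, 3.67 and 4.29 at D8, 5.94, 5.94 and 3.52 at D16, and 2.31, 2.71 and 6.42 FPKM in PN. It was lower at D16 (-1.08 ± 0.28, adjusted p = 0.0032) but not in every setting (-0.96 without D0 replicate 3 and -0.88 without D16 replicate 3). Sema7a, a lipid-anchored semaphorin that binds plexin-C1 and integrins (chromosome 9, start 57940112, end 57962865), had 6.24, 20.1 and 8.27 FPKM at D0, 3.89, 4.68 and 4.39 at D4, 2.25, 2.11 and 2.65 at D8, 2.19, 1.89 and 1.54 at D16, and 44.4, 41.5 and 43.4 FPKM in PN. The D16 libraries were below every D0 library and the PN libraries above every D0 library. D16 was lower than D0 (-1.97 ± 0.28, adjusted p = 1.9e-05), and PN was higher than D0 (1.97 ± 0.28, adjusted p = 1.4e-05). It was the 1 member called in opposite directions in these comparisons, which share the D0 libraries. At D4 the call was lost without D0 replicate 2 (-0.63 without D0 replicate 2). Sema6a and Sema6d were not called in any comparison, with group means of 6.92 to 12.4 and 5.57 to 12.6 FPKM.

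Neuropilins, the ligand-binding co-receptors of class 3 semaphorins and of vascular endothelial growth factor, were high in PN and were not called on any day of induction. Nrp1 had 22.3, 11.2 and 20.9 FPKM at D0, 12.5, 9.63 and 11.7 at D4, 13.8, 6.45 and 17.3 at D8, 10.7, 5.74 and 10.3 at D16, and 32.5, 35.6 and 58.7 FPKM in PN. Nrp2 had 16.02, 2.36 and 7.70 FPKM at D0, 6.83, 2.41 and 4.69 at D4, 6.004, 2.22 and 3.87 at D8, 4.76, 5.68 and 5.44 at D16, and 22.7, 34.6 and 52.0 FPKM in PN. PN libraries exceeded all others for both genes, and D0 replicate 2 was the lowest D0 library for both. At D16 Nrp1 was lower than in PN (-2.12 ± 0.34, adjusted p = 6.6e-05), as was Nrp2 (-2.499 ± 0.48, adjusted p = 3.4e-04). Against D0, D16 changes were -0.94 ± 0.34 (adjusted p = 0.025) and -0.34 ± 0.48 (adjusted p = 0.56). PN was higher than D0 (1.18 ± 0.34, adjusted p = 0.0062) for Nrp1 but not in every setting (0.89 without D0 replicate 2 and 0.93 without PN replicate 3), and for Nrp2 (2.16 ± 0.48, adjusted p = 9.6e-04).

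Plexins carry the signal into the cell, and their summed FPKM was 98.4 ± 18.5 at D16 and 165 ± 18.6 in PN, against 189 ± 22.8 at D0 (SD, n = 3 each). Plxnb2, the class B receptor known from neural progenitors (chromosome 15, start 89155549, end 89180788), had 114, 92.5 and 113 FPKM at D0, 56.5, 45.3 and 47.7 at D4, 44.7, 24.5 and 38.1 at D8, 34.2, 35.1 and 24.5 at D16, and 18.3, 13.2 and 27.3 FPKM in PN. It made up 31.8% of the plexin sum at D16, against 56.4% at D0. Its changes were -1.08 ± 0.25 at D4, -1.58 ± 0.25 at D8 and -1.75 ± 0.25 at D16 (adjusted p at D16 = 1.9e-05). At D4 that call was lost (-0.93 with quantile normalization). Plxnb1, the Sema4d receptor, had 13.98, 14.6 and 22.0 FPKM at D0, 8.21, 4.36 and 6.04 at D4, 8.78, 5.40 and 7.55 at D8, 7.48, 8.13 and 6.71 at D16, and 8.09, 5.86 and 11.3 FPKM in PN. It was lower at D16 (-1.06 ± 0.25, adjusted p = 0.0019), but the change was -0.86 without D0 replicate 3 and -0.99 without D16 replicate 3. At D8 it was -1.11 ± 0.25, but -0.97 with quantile normalization, -0.92 without D0 replicate 3 and -0.94 without D8 replicate 2.

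Plexins that were higher at D16 were Plxna3 and Plxna4, partners of the neuropilins, and the Sema7a receptor Plxnc1. Plxna4 had 0.942, 1.09 and 1.44 FPKM at D0, 2.33, 0.875 and 1.14 at D4, 3.67, 1.15 and 2.12 at D8, 4.79, 4.76 and 4.08 at D16, and 23.7, 17.4 and 13.6 FPKM in PN. The D16 libraries lay above all D0 libraries (1.36 ± 0.28, adjusted p = 5.4e-04) and below all PN libraries (-1.76 ± 0.28, adjusted p = 5.5e-05). Plxnc1 had 0.608, 0.522 and 1.33 FPKM at D0, 2.87, 3.07 and 2.58 at D4, 5.15, 3.24 and 3.03 at D8, 4.97, 5.62 and 4.41 at D16, and 14.2, 22.4 and 6.57 FPKM in PN. Its changes against D0 were 1.10 ± 0.31 at D4, 1.40 ± 0.31 at D8 and 1.74 ± 0.31 at D16 (adjusted p at D16 = 1.9e-04), and it was lower at D16 than in PN (-1.22 ± 0.31, but -0.85 without PN replicate 2). At D4 the call depended on D0 replicate 2 and on the scaling (0.85 with quantile normalization and 0.99 without D0 replicate 2). Plxna3 averaged 3.49, 5.70, 6.22 and 8.40 FPKM at D0, D4, D8 and D16, and 11.3 FPKM in PN, and was called higher at D16 (1.06 ± 0.21, but 0.89 without D0 replicate 2 and 0.88 without D16 replicate 2).

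Plxna2, a receptor of class 3 and class 6 semaphorins, had 15.1, 5.31 and 5.66 FPKM at D0, 6.88, 4.64 and 4.87 at D4, 6.56, 2.33 and 3.82 at D8, 6.09, 3.65 and 3.51 at D16, and 31.1, 25.8 and 31.2 FPKM in PN. PN stood above all other libraries, and D16 was lower than PN (-2.51 ± 0.34, adjusted p = 1.4e-05) while D16 against D0 was not called (-0.73 ± 0.34). Plxna1 averaged 27.2, 11.9, 11.9 and 16.9 FPKM at D0, D4, D8 and D16, and 37.9 FPKM in PN. It was lower at D4 (-1.18 ± 0.30, but -0.93 without D4 replicate 2) and at D8 (-1.23 ± 0.30, but -0.86 without D8 replicate 2), and lower at D16 than in PN (-1.12 ± 0.30, but -0.98 without D16 replicate 3 and -0.996 without PN replicate 1). The Sema3e receptor Plxnd1 averaged 23.8, 17.03, 15.9 and 20.4 FPKM at D0, D4, D8 and D16, and 25.8 FPKM in PN and was not called in any comparison.

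**Figure D2:**
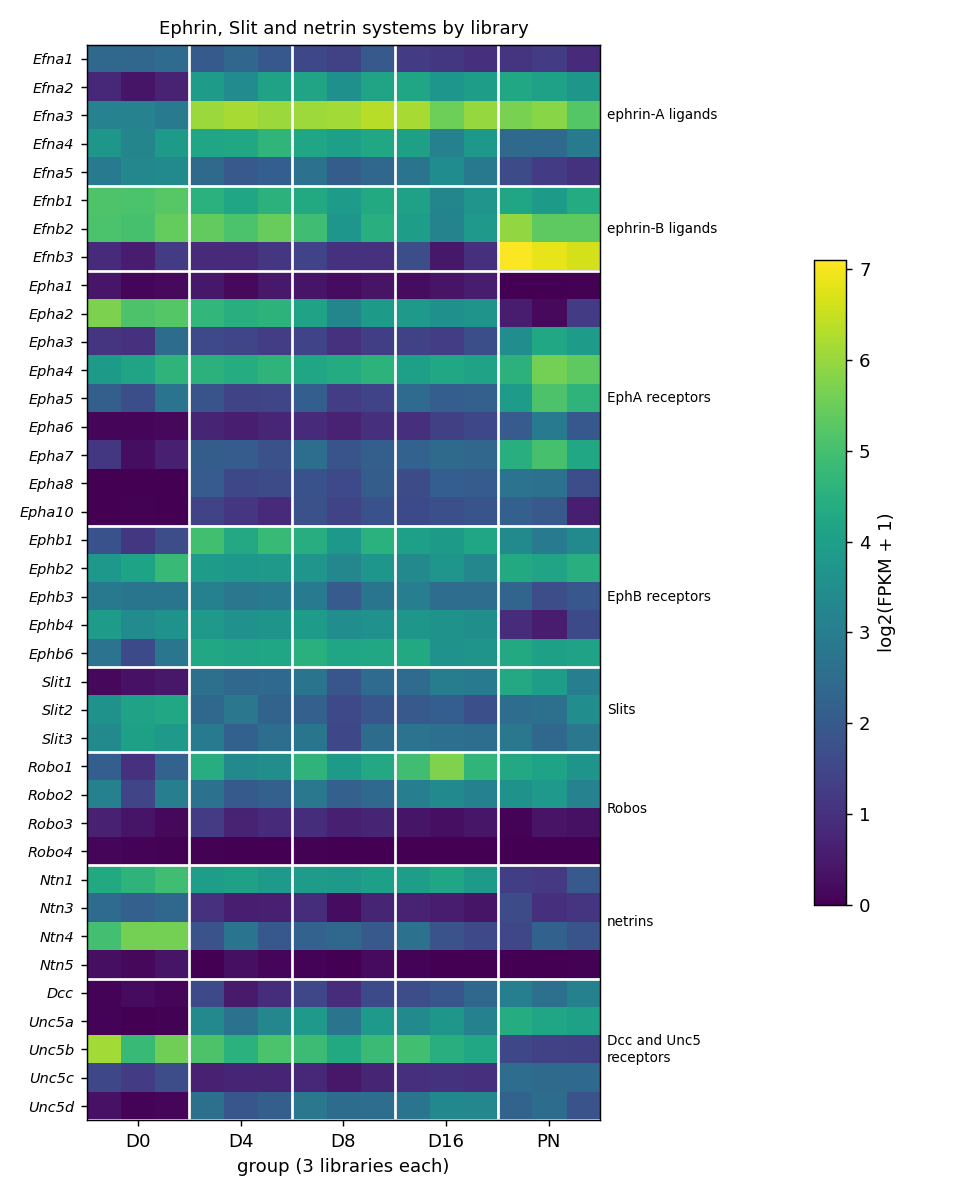
Each row is an ephrin, Eph receptor, Slit, Robo, netrin, Dcc or Unc5 gene and each column 1 library, in 5 groups of 3, and colour gives log2(FPKM + 1). Efna3 was brightest in the induced and PN libraries, Efnb3 in PN, and Ntn4 and Unc5b at D0.

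Ephrin-A ligands are attached to the membrane by a lipid anchor and bind EphA receptors. Efna2 and Efna3 rose on every day, and Efna1 was lower at D16. Efna3 (chromosome 3, start 89313899, end 89322965) had 7.88, 7.81 and 6.55 FPKM at D0, 64.6, 71.4 and 64.7 at D4, 66.0, 68.2 and 79.8 at D8, 70.9, 44.9 and 62.3 at D16, and 49.9, 56.3 and 36.6 FPKM in PN. The 9 induced libraries lay between 44.9 and 79.8 FPKM, against at most 7.88 FPKM at D0, and overlapped PN. Its changes were 3.02 ± 0.18 at D4, 3.10 ± 0.18 at D8 and 2.82 ± 0.18 at D16 (adjusted p at D16 = 5.8e-09), and D16 against PN was not called (0.31 ± 0.18). Efna3 had the highest mean FPKM of all 69 members at D4, D8 and D16. Efna2 (chromosome 10, start 80179482, end 80190010) had 0.746, 0.321 and 0.628 FPKM at D0, 14.1, 9.76 and 16.1 at D4, 16.7, 10.9 and 16.8 at D8, 17.3, 12.3 and 14.4 at D16, and 17.8, 15.6 and 12.5 FPKM in PN. Its D4, D8, D16 and PN libraries overlapped each other and none overlapped D0, with changes of 3.18 ± 0.22 at D4, 3.32 ± 0.22 at D8 and 3.32 ± 0.22 at D16 (adjusted p at D16 = 7.5e-09). Efna5, a ligand of topographic maps, had 6.56, 8.81 and 9.63 FPKM at D0, 4.49, 2.97 and 3.35 at D4, 5.31, 3.30 and 4.20 at D8, 5.66, 9.97 and 6.29 at D16, and 2.17, 1.35 and 1.07 FPKM in PN. Every D16 library was above every PN library (1.70 ± 0.23, adjusted p = 1.5e-05), and D16 against D0 was not called (-0.19 ± 0.23). At D4 Efna5 was called lower (-1.02 ± 0.23), but -0.98 without D0 replicate 2, -0.92 without D0 replicate 3, -0.92 without D4 replicate 2 and -0.99 without D4 replicate 3.

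Efna1 averaged 4.30, 3.32, 2.14 and 1.18 FPKM at D0, D4, D8 and D16, and 1.10 FPKM in PN, with D16 at -1.29 ± 0.18, adjusted p = 1.8e-05 against D0. Efna4 averaged 11.5, 19.8, 16.6 and 11.99 FPKM at D0, D4, D8 and D16, and 5.19 FPKM in PN. It was called higher in D16 than in PN (1.04 ± 0.24, but 0.95 with libraries rescaled to an equal total, 0.89 with quantile normalization, 0.85 without D16 replicate 1, 0.98 without D16 replicate 3, 0.96 without PN replicate 1 and 0.95 without PN replicate 2), and D16 against D0 was not called (0.029 ± 0.24). PN was called lower than D0 (-1.01 ± 0.24), but the change was -0.89 with libraries rescaled to an equal total, -0.78 with quantile normalization, -0.95 without D0 replicate 1, -0.89 without D0 replicate 3, -0.93 without PN replicate 1 and -0.92 without PN replicate 2. The summed ephrin-A FPKM was 94.5 ± 17.3 at D16 and 70.7 ± 11.4 in PN, against 32.1 ± 2.82 at D0 (SD, n = 3 each).

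Of 8 EphA receptors tested, Epha2 was lower at D16 than at D0 and Epha6, Epha7, Epha8 and Epha10 were higher. The shares over all genes were 18.7% lower and 16.6% higher. Epha2, a receptor common in epithelial and dividing cells (chromosome 4, start 141301240, end 141329384), had 51.3, 33.8 and 36.5 FPKM at D0, 24.9, 21.2 and 23.1 at D4, 16.1, 8.52 and 13.7 at D8, 13.3, 10.8 and 11.8 at D16, and 0.491, 0.128 and 1.41 FPKM in PN. D16 fell to 13.3 FPKM or less, against 33.8 FPKM or more at D0, and stayed above every PN library. The changes were -1.66 ± 0.26, adjusted p = 5.6e-05 against D0 and 3.02 ± 0.26, adjusted p = 1.4e-07 against PN. Epha7, a receptor of cortical maps, had 1.22, 0.208 and 0.531 FPKM at D0, 3.30, 3.19 and 2.37 at D4, 4.92, 2.57 and 3.40 at D8, 3.66, 4.49 and 4.04 at D16, and 20.7, 31.5 and 17.7 FPKM in PN. It was higher on each day (1.30 ± 0.25 at D4, 1.502 ± 0.25 at D8 and 1.66 ± 0.25 at D16, adjusted p at D16 = 4.3e-05) and lower at D16 than in PN (-2.23 ± 0.25, adjusted p = 2.3e-06). Epha8 averaged 0.00450, 2.39, 2.55 and 2.90 FPKM at D0, D4, D8 and D16, and 4.38 FPKM in PN, and Epha10, whose kinase domain is inactive, 0.0122, 1.25, 2.19 and 2.30 FPKM at D0, D4, D8 and D16, and 2.32 FPKM in PN. Both were higher on each day, at 1.94 ± 0.25 and 1.70 ± 0.30 at D16, and neither was called against PN. The D4 call of Epha10 was not kept in every setting (0.84 with quantile normalization and 0.99 without D4 replicate 1). Epha6 averaged 0.0834, 0.611, 0.799 and 1.45 FPKM at D0, D4, D8 and D16, and 4.20 FPKM in PN and was higher at D16 (1.16 ± 0.23, but 0.88 with quantile normalization).

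Epha4, which binds both ephrin classes and is the receptor that stops corticospinal axons at the midline, had 13.6, 16.6 and 23.3 FPKM at D0, 22.7, 20.1 and 23.4 at D4, 17.1, 19.8 and 22.9 at D8, 15.03, 18.01 and 16.2 at D16, and 22.8, 48.4 and 39.4 FPKM in PN. D16 and D0 overlapped (-0.087 ± 0.24, adjusted p = 0.77). D16 was lower than PN (-1.06 ± 0.24), but the change was -0.84 without PN replicate 2 and -0.98 without PN replicate 3. Epha3 had 1.16, 1.002 and 4.64 FPKM at D0, 1.94, 1.80 and 1.45 at D4, 1.69, 1.02 and 1.49 at D8, 1.59, 1.43 and 2.29 at D16, and 10.1, 18.1 and 14.1 FPKM in PN. It was high in PN alone among the 5 group means, and D16 was lower than PN (-2.42 ± 0.32, adjusted p = 1.0e-05). Epha5 averaged 3.77, 2.06, 2.18 and 3.83 FPKM at D0, D4, D8 and D16, and 23.8 FPKM in PN, and D16 was lower than PN (-2.29 ± 0.31). With Epha6 (-1.03 ± 0.23, but -0.87 without D16 replicate 1 and -0.73 without PN replicate 2) and Epha7, 5 of 8 EphA receptors tested were lower in D16 than in PN. Over all genes 15% were lower in this comparison.

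Ephrin-B ligands span the membrane and signal back into the cell that carries them. Efnb3 (chromosome 11, start 69554092, end 69560205), the ligand that Epha4-bearing axons meet at the spinal midline, differed most of all members between D16 and PN. It had 0.7998, 0.468 and 1.33 FPKM at D0, 0.785, 0.833 and 1.16 at D4, 1.70, 1.01 and 0.999 at D8, 2.24, 0.375 and 0.985 at D16, and 131, 113 and 98.6 FPKM in PN. The highest induced library was at 2.24 FPKM and the lowest PN library at 98.6 FPKM, and D16 was lower than PN (-5.79 ± 0.27, adjusted p = 2.4e-10). D16 against D0 was not called (0.17 ± 0.27, adjusted p = 0.59). Efnb1 had 34.2, 33.1 and 37.3 FPKM at D0, 22.3, 17.5 and 22.7 at D4, 18.9, 14.2 and 18.8 at D8, 15.7, 8.54 and 12.1 at D16, and 17.2, 13.7 and 19.8 FPKM in PN. It was lower at D16 than at D0 (-1.49 ± 0.20, adjusted p = 1.1e-05), and D16 against PN was not called (-0.47 ± 0.20). PN was called lower than D0 (-1.02 ± 0.20), but the change was -0.88 with libraries rescaled to an equal total, -0.84 with quantile normalization, -0.97 without D0 replicate 3 and -0.88 without PN replicate 2. Efnb2, the arterial ligand of Ephb4, had 33.3, 32.0 and 42.1 FPKM at D0, 41.1, 33.3 and 42.5 at D4, 29.2, 12.3 and 21.5 at D8, 14.5, 8.02 and 13.2 at D16, and 60.9, 39.2 and 39.5 FPKM in PN. It was not called at D4 (0.12 ± 0.28) and was lower at D16 than in D0 (-1.54 ± 0.28, adjusted p = 1.9e-04) and than in PN (-1.89 ± 0.28, adjusted p = 2.9e-05).

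EphB receptors included a large rise and a large difference from PN. Ephb1 (chromosome 9, start 101922128, end 102354693), known for steering retinal axons at the chiasm, had 2.43, 1.24 and 2.22 FPKM at D0, 29.8, 18.4 and 26.6 at D4, 20.4, 12.9 and 22.3 at D8, 14.98, 13.6 and 17.5 at D16, and 9.40, 6.41 and 9.45 FPKM in PN. All induced and PN libraries exceeded all D0 libraries, and its changes were 3.13 ± 0.24 at D4, 2.71 ± 0.24 at D8 and 2.48 ± 0.24 at D16 (adjusted p at D16 = 4.2e-07). The D16 libraries lay above every PN library, but the change (0.81 ± 0.24) was under the threshold on size. Ephb6, which has no kinase activity, had 5.53, 2.01 and 5.91 FPKM at D0, 18.3, 16.8 and 17.5 at D4, 21.8, 17.2 and 18.3 at D8, 18.9, 11.2 and 11.7 at D16, and 18.8, 15.5 and 16.1 FPKM in PN. Its changes were 1.85 ± 0.27 at D4, 1.96 ± 0.27 at D8 and 1.504 ± 0.27 at D16 (adjusted p at D16 = 1.6e-04), and D16 overlapped PN. Ephb4, the venous endothelial receptor of Efnb2, had 13.8, 9.67 and 11.4 FPKM at D0, 13.1, 10.9 and 11.7 at D4, 14.2, 10.2 and 11.1 at D8, 12.5, 11.5 and 10.51 at D16, and 0.885, 0.460 and 1.99 FPKM in PN. D0 and all induced days overlapped, and D16 was higher than PN (2.62 ± 0.22, adjusted p = 1.2e-07). Of 6 endothelial markers, Cdh5, Pecam1, Tek and Cldn5 stayed below 1 FPKM in every library, while Flt1 was at 8.58, 6.34 and 6.98 FPKM at D16, 0.0787, 0.0283 and 0.0766 FPKM in PN and 2.42, 0.549 and 0.796 FPKM at D0. The sixth, Kdr, was at 0.738, 1.48 and 1.55 FPKM at D16, 0.265, 0.377 and 4.19 FPKM in PN and 0.947, 0.856 and 0.903 FPKM at D0, and was not called in any comparison, with PN replicate 3 the highest library. Ephb2 and Ephb3 were not called in any comparison, with group means of 10.1 to 18.9 and 3.003 to 6.76 FPKM.

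**Figure D3:**
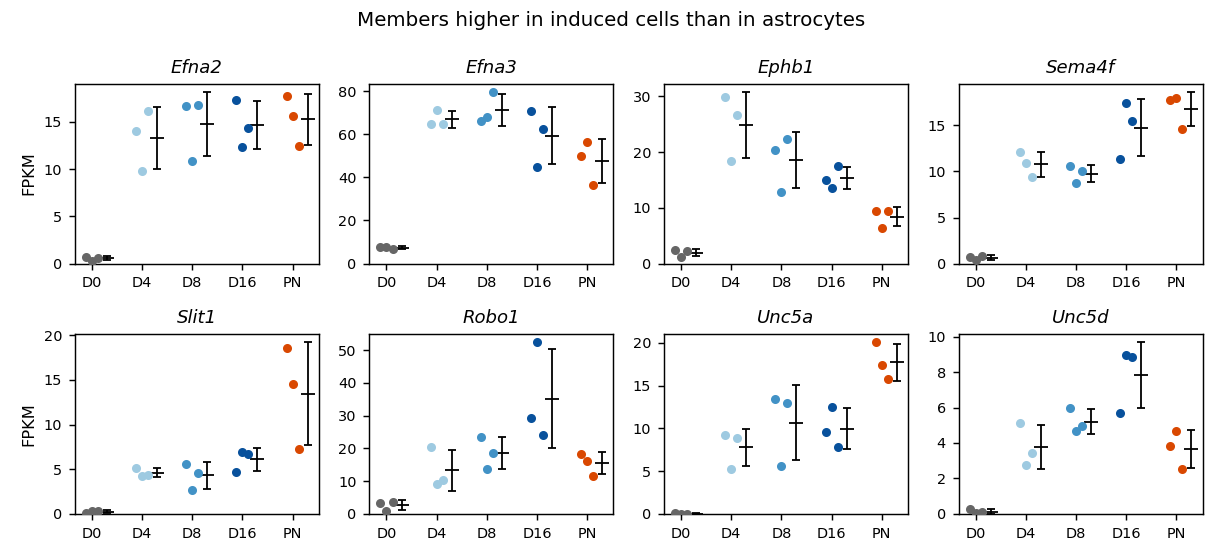
Points are FPKM in single libraries of D0, D4, D8, D16 and PN for 8 members called higher at D16 than at D0, and the bars beside them mean ± SD (n = 3). All 8 left the D0 range by D4, and every D16 library of Ephb1, Robo1 and Unc5d lay above every PN library.

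Slits are secreted repellents of the midline. On each day Slit1 rose, and Slit2 and Slit3 fell. Slit1, which is largely neural (chromosome 19, start 41600257, end 41743665), had 0.106, 0.277 and 0.364 FPKM at D0, 5.19, 4.27 and 4.36 at D4, 5.58, 2.70 and 4.62 at D8, 4.64, 6.97 and 6.66 at D16, and 18.5, 14.6 and 7.22 FPKM in PN. No induced library overlapped D0, with changes of 2.17 ± 0.28 at D4, 2.05 ± 0.28 at D8 and 2.49 ± 0.28 at D16 (adjusted p at D16 = 2.0e-06). Slit2 had 11.5, 16.02 and 18.2 FPKM at D0, 4.21, 6.06 and 3.78 at D4, 3.56, 1.96 and 2.73 at D8, 2.92, 3.35 and 2.34 at D16, and 4.80, 5.11 and 10.2 FPKM in PN. Slit3 had 9.58, 15.3 and 13.3 FPKM at D0, 6.54, 3.59 and 4.92 at D4, 5.83, 1.93 and 4.72 at D8, 5.52, 5.02 and 4.87 at D16, and 6.18, 4.24 and 6.09 FPKM in PN. For both, every induced library lay below every D0 library, and D16 changes were -2.05 ± 0.26, adjusted p = 7.1e-06 for Slit2 and -1.14 ± 0.28, adjusted p = 0.0024 for Slit3. No Slit was called between D16 and PN. In PN both were also called lower than at D0. For Slit2 the change was -1.12 ± 0.26, but -0.99 with libraries rescaled to an equal total, -0.87 with quantile normalization, -0.99 without D0 replicate 3, -0.95 without PN replicate 1 and -0.99 without PN replicate 2. For Slit3 it was -1.07 ± 0.28, but -0.94 with libraries rescaled to an equal total, -0.83 with quantile normalization, -0.93 without D0 replicate 2 and -0.92 without PN replicate 2. Slit1 made up 43.2% of the Slit sum at D16 and 52.4% in PN, while Slit2 made up 54.0% at D0.

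Robo1 and Robo2 are the Slit receptors of forebrain axons, and only Robo1 was called. Robo1 (chromosome 16, start 72308306, end 73046095) had 3.32, 1.002 and 3.69 FPKM at D0, 20.5, 9.05 and 10.4 at D4, 23.6, 13.7 and 18.6 at D8, 29.3, 52.4 and 24.0 at D16, and 18.4, 16.2 and 11.7 FPKM in PN. Its changes were 1.98 ± 0.37 at D4, 2.48 ± 0.37 at D8 and 3.32 ± 0.37 at D16 (adjusted p at D16 = 1.6e-06), and D16 replicate 2 stood highest at 52.4 FPKM. Every D16 library was above every PN library, at 1.08 ± 0.37, adjusted p = 0.018. That call was not kept in every setting (0.97 with libraries rescaled to an equal total, 0.76 without D16 replicate 2 and 0.91 without PN replicate 3). Robo2 had 7.71, 1.81 and 7.27 FPKM at D0, 5.39, 3.07 and 3.50 at D4, 6.19, 3.53 and 4.42 at D8, 7.13, 9.40 and 7.74 at D16, and 11.2, 13.1 and 7.84 FPKM in PN. D0 replicate 2 was the lowest library, and Robo2 was not called in any comparison (D16 against D0 0.62 ± 0.35). Robo3, a receptor of commissural axons, reached 1.34 FPKM in a single D4 library, and the endothelial Robo4 reached at most 0.0979 FPKM.

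Netrins were lower in the induced cells, with 2 of 3 tested called on each day and none higher. Over all genes 14.2%, 16.9% and 18.7% were lower at D4, D8 and D16. Ntn4, a netrin of basement membranes related to laminins (chromosome 10, start 93640681, end 93747207), had 30.6, 48.3 and 48.5 FPKM at D0, 2.49, 5.65 and 2.91 at D4, 3.70, 4.27 and 2.97 at D8, 5.25, 2.503 and 1.95 at D16, and 1.84, 3.59 and 2.59 FPKM in PN. Induced and PN libraries reached at most 5.65 FPKM, against 30.6 FPKM or more at D0, with changes of -3.24 ± 0.30 at D4, -3.21 ± 0.30 at D8 and -3.41 ± 0.30 at D16 (adjusted p at D16 = 1.7e-07). Ntn3 averaged 4.10, 0.688, 0.585 and 0.457 FPKM at D0, D4, D8 and D16, and 1.41 FPKM in PN, with D16 at -1.81 ± 0.21. Its annotated span overlaps Tbc1d24 on the same strand, so reads of the 2 genes may not be separable. In PN its call was not kept in every setting (-0.83 with quantile normalization and -0.98 without PN replicate 2). Ntn1, the classical netrin (chromosome 11, start 68209364, end 68400823), had 18.8, 23.7 and 29.1 FPKM at D0, 14.7, 15.8 and 13.2 at D4, 14.1, 13.2 and 14.99 at D8, 14.5, 17.5 and 13.6 at D16, and 1.47, 1.26 and 2.95 FPKM in PN. The induced libraries lay just below D0 and were not called (-0.60 ± 0.20 at D16), and D16 was higher than PN (2.53 ± 0.20, adjusted p = 6.9e-08). Ntn1 made up 80.4% of the netrin sum at D16, against 33.8% at D0.

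Of the netrin receptors, Dcc, Unc5a and Unc5d were higher at D16 than at D0, and Unc5b and Unc5c were not called on any day. Dcc, the attractive receptor, had 0.0437, 0.161 and 0.0952 FPKM at D0, 1.94, 0.435 and 0.889 at D4, 1.85, 0.864 and 2.02 at D8, 2.22, 2.76 and 4.27 at D16, and 7.31, 5.18 and 7.77 FPKM in PN. D16 and PN libraries stood above all D0 libraries, with changes of 0.86 ± 0.27 at D4, 1.20 ± 0.27 at D8 and 1.86 ± 0.27 at D16 (adjusted p at D16 = 2.3e-05), and D16 against PN was not called (-0.94 ± 0.27). The D8 call was not kept in every setting (0.89 with quantile normalization). Unc5a, a neuronal repulsive receptor (chromosome 13, start 54949411, end 55006018), had 0.0472, 0 and 0.0287 FPKM at D0, 9.22, 5.30 and 8.82 at D4, 13.4, 5.64 and 12.98 at D8, 9.54, 12.5 and 7.77 at D16, and 20.05, 17.4 and 15.7 FPKM in PN. It reached at most 0.0472 FPKM at D0 and was at 5.30 FPKM or more in every other library, with changes of 3.07 ± 0.27 at D4, 3.43 ± 0.27 at D8 and 3.39 ± 0.27 at D16 (adjusted p at D16 = 5.9e-08). This was the largest rise of a member between D0 and D16, and D16 against PN was not called (-0.79 ± 0.27). Unc5d, which also binds Flrt proteins, had 0.265, 0.0469 and 0.0832 FPKM at D0, 5.14, 2.73 and 3.42 at D4, 5.999, 4.66 and 4.97 at D8, 5.70, 8.96 and 8.83 at D16, and 3.82, 4.66 and 2.51 FPKM in PN. Its changes were 2.05 ± 0.23 at D4, 2.45 ± 0.23 at D8 and 2.95 ± 0.23 at D16 (adjusted p at D16 = 3.9e-08), and each D16 library exceeded each PN library without reaching the threshold on size (0.93 ± 0.23). Unc5b, also a vascular guidance receptor (chromosome 10, start 60762593, end 60831581), had 68.5, 27.2 and 46.4 FPKM at D0, 33.8, 22.3 and 33.2 at D4, 28.4, 18.8 and 27.7 at D8, 30.0, 20.8 and 17.9 at D16, and 1.90, 1.58 and 1.53 FPKM in PN. D0 and induced libraries overlapped, and D16 was higher than PN (3.13 ± 0.28, adjusted p = 2.2e-07). Unc5c averaged 1.83, 0.642, 0.589 and 0.990 FPKM at D0, D4, D8 and D16, and 4.57 FPKM in PN and was lower at D16 than in PN (-1.48 ± 0.15). Unc5b made up 51.2% of the summed Dcc and Unc5 FPKM at D16 and 4.86% in PN, against 95.8% at D0. In PN, Unc5a had the largest share (51.6%).

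**Figure D4:**
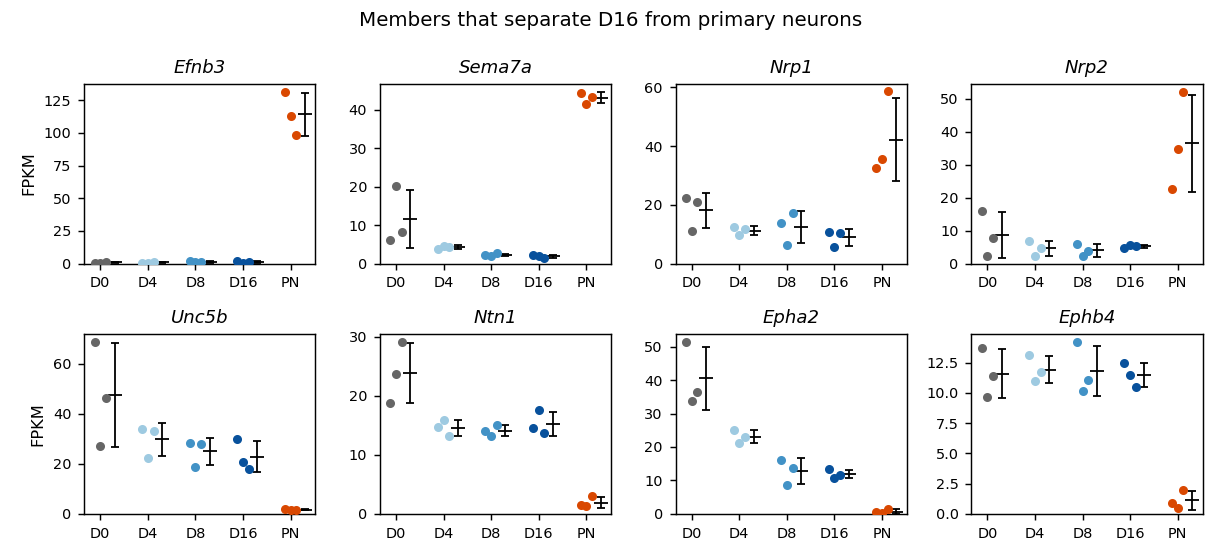
Points are FPKM in single libraries of D0, D4, D8, D16 and PN for 8 members called between D16 and PN, and the bars beside them mean ± SD (n = 3). Efnb3, Sema7a, Nrp1 and Nrp2 were high in PN, and Unc5b, Ntn1, Epha2 and Ephb4 were low in PN and higher at D16.

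Between D16 and PN, 9 members were higher and 20 lower in D16, with 34.6% of all genes called (19.6% higher and 15% lower). The members higher in D16 were Unc5b, Epha2, Ephb4, Ntn1, Sema5a, Efna5, Sema3b, Robo1 and Efna4. Of these, Epha2 and Sema3b were lower in D16 than in D0 and Sema5a and Robo1 higher, while Efna4, Efna5, Ephb4, Ntn1 and Unc5b were not called at D16 against D0. The members lower in D16 were led by Efnb3, Sema7a, Plxna2, Nrp2 and Epha3. Of the 21 members that were higher in D16 than in D0, 13 were not called against PN, 6 were lower than in PN (Epha6, Epha7, Plxna4, Plxnc1, Sema4g and Sema6c) and 2 were higher than in PN (Robo1 and Sema5a). Among these named genes, the calls between D16 and PN of Efna4, Epha6, Plxnc1 and Robo1 were lost in some settings, given with each gene. The 13 include Dcc, Slit1, Sema6b and Unc5a, whose changes against PN of -0.79 to -0.95 were under the threshold on size, so not being called does not show equal levels. For Efna2 the change was -0.054 ± 0.22 and for Sema4f -0.19 ± 0.18. On the receptor side 4 of 30 were higher and 12 lower in D16 than in PN, and on the ligand side 5 of 33 were higher and 8 lower. The summed FPKM of all 69 members was 615 ± 39.6 at D16 and 996 ± 30.9 in PN, against 792 ± 78.6 at D0 (SD, n = 3 each). Efnb3 alone made up 11.5% of the PN sum.

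**Figure D5:**
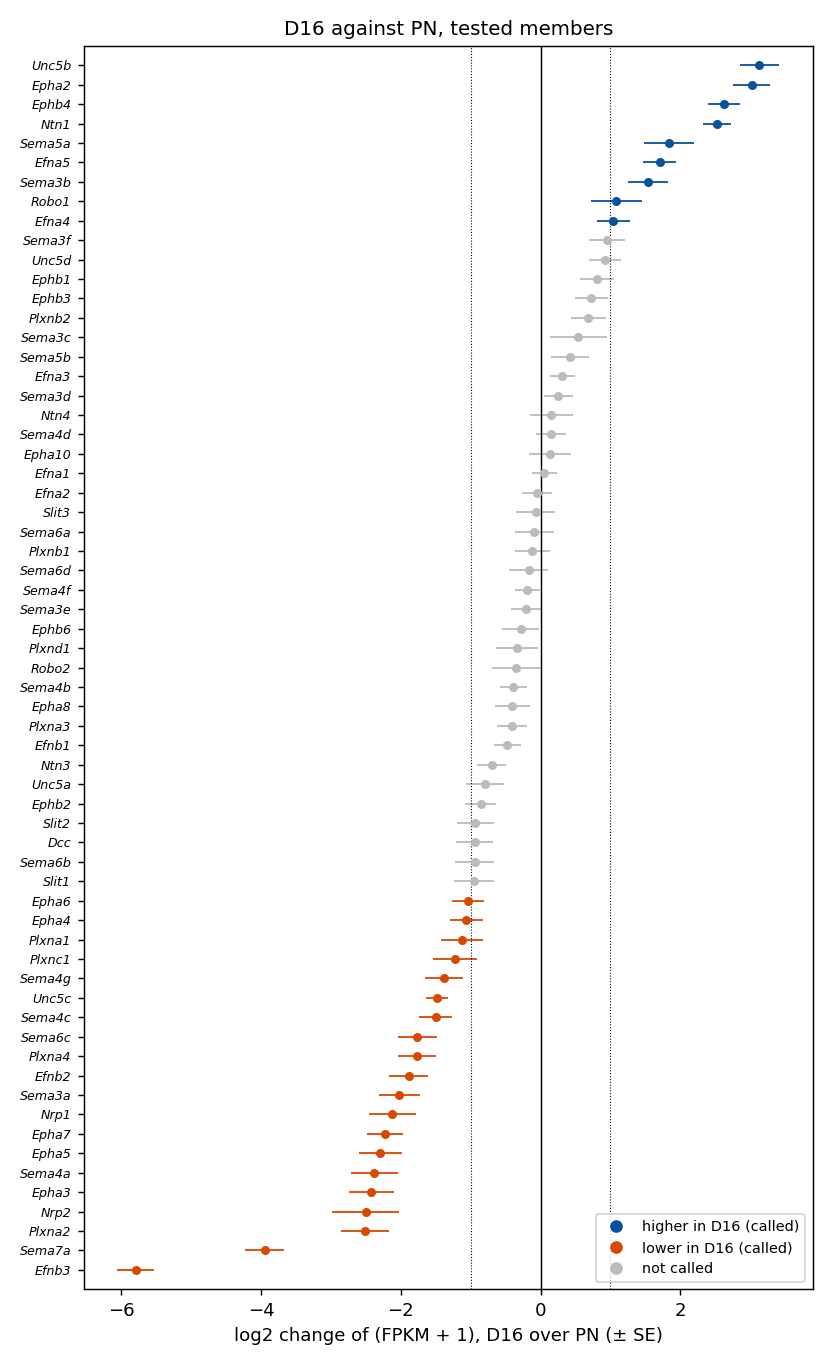
Each point is 1 of the 63 tested members, placed by its change between D16 and PN on the log2(FPKM + 1) scale, D16 over PN, with bars of 1 SE and dotted lines at the call size of 1. Unc5b is highest at 3.13, and Efnb3 is lowest at -5.79, followed by Sema7a at -3.94.

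No member was called between neighbouring days, and D16 was not compared with D4. Between D8 and D4, limma called 0 of 63 members, with 5 at an unadjusted p below 0.05 and 2.01% of all genes called (0.501% higher and 1.51% lower). Those 5 were Efnb2 (-0.93 ± 0.28), Epha2 (-0.85 ± 0.26), Sema7a (-0.67 ± 0.28), Slit2 (-0.60 ± 0.26) and Efna1 (-0.47 ± 0.18), all lower at D8. Efnb2 was called without D8 replicate 1 (-1.20, adjusted p = 0.039). Between D16 and D8, 0 members were called, with 10 at an unadjusted p below 0.05 and 0.0286% of all genes called (0.0215% higher and 0.00715% lower). The largest of the 10 were Robo1 (0.84 ± 0.37) and Plxna4 (0.81 ± 0.28), both higher at D16, and Efnb2 (-0.73 ± 0.28), lower at D16. The adjusted p of the 10 ran from 0.26 to 0.37.

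Other guidance genes outside these families were counted from 2 lists. Of 37 other cues and co-receptors, 15 were higher and 5 lower at D16 than at D0, with 17 not called and a median change of 0.74, against 16.6% higher and 18.7% lower and a median of -0.0063 over all genes. They included the adhesion molecule L1cam (20.9 ± 4.77 FPKM at D16, against 0.181 ± 0.0575 FPKM at D0, change 4.19 ± 0.30), the cadherin-family gene Celsr3 (11.5 ± 3.65 against 0.133 ± 0.0571 FPKM, 3.43 ± 0.24) and Nfasc, a protein of the axon initial segment (2.71 ± 0.35). Lower were the dystroglycan gene Dag1 (21.5 ± 4.08 against 115 ± 22.1 FPKM, -2.37 ± 0.20) and the hedgehog co-receptors Boc (-2.30 ± 0.21) and Cdon (-1.80 ± 0.36). L1cam was also the 1 gene of the list called between D8 and D4 (1.17 ± 0.30, adjusted p = 0.045). Against PN, 2 were higher in D16 (Ntng1 and Nfasc) and 14 lower, against 19.6% and 15% over all genes, among them Chl1 (1.01 ± 0.445 FPKM at D16 and 124 ± 45.4 FPKM in PN, -5.93 ± 0.41).

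Of 55 transducers 54 were tested, and 13 were higher and 11 lower at D16 than at D0, with 30 not called and a median change of -0.018, against 16.6% higher and 18.7% lower over all genes. The collapsin response gene Crmp1 (5.13 ± 0.28), the Cdk5 activator gene Cdk5r1 (2.73 ± 0.22) and Dpysl5 (1.83 ± 0.34) were highest by change. The small GTPase gene Rras, which plexins inactivate (7.83 ± 3.02 FPKM at D16, against 148 ± 34.4 FPKM at D0, -4.12 ± 0.33) and Rnd1 (-2.45 ± 0.26) fell most. Between D16 and PN, 6 were higher in D16, led by Grb10 (2.33 ± 0.15), and 22 were lower, against 19.6% and 15% over all genes. The genes lower in D16 were led by Dpysl3, a semaphorin response mediator (21.3 ± 5.18 FPKM at D16 and 838 ± 162 FPKM in PN, -5.24 ± 0.26), and included the growth-cone protein gene Gap43 (-3.22 ± 0.26).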

How the data were processed

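Total RNA of 15 libraries (150-base paired-end reads per the labels) was read from 1 table of FPKM values deposited by the authors, with 24346 gene symbols and 15 columns matched to samples by title. The genome build was mm10 (GRCm38), per the submitters' processing notes, while the aligner, quantifier, annotation and strandedness are not given in the sources used here. Absolute depth is unknown, and relative depth was read from whole-number steps of values up to 0.5 FPKM. Genes with at least 1 FPKM in at least 3 libraries were kept (13983 genes, 63 of 69 members). All 15 libraries entered 1 limma fit of log2(FPKM + 1) on the 5 group means (limma 3.58.1, R 4.3.3, trended prior variance, 10 residual degrees of freedom), with Benjamini-Hochberg adjustment over all tested genes in each of 7 comparisons. Given in every library are a fixed panel of 12 members and, in each family, those that reached a mean of 5 FPKM in a group and had the largest called changes at D16 against D0 (up to 2 a direction) or against PN (1 a direction); others are given by group means. Gene positions are from GENCODE vM21 and promoter windows from RefSeq (GRCm38.p6), which held 59 members. Alternatives were a pseudocount of 0.1, no filter and a filter at 5 FPKM, libraries rescaled to an equal total, quantile normalization, the replicate number as a block, a fit of the 2 groups compared, no minimum on the change, and leaving out each library in turn. Same-numbered D4 and D8 libraries deviated together (r 0.329 to 0.454 over genes), and no other comparison had every pair above 0.1. The numbers may pair these libraries, but relative depth was also highest in replicate 2 and lowest in replicate 3 of every group. Which of these accounts for it was not tested. The members and lists were chosen with earlier results of these data known.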

Additional observations from a re-analysis of the deposited data

How the results depend on the processing

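Of 176 called pairs of a member and a comparison, 142 kept their call in every alternative setting in which the member was tested. Another 34 lost it in at least 1, with 0 reversed in sign. There were 23 settings. The filter at 5 FPKM left 53 members tested, so called pairs of the members it removed, such as Epha8, entered 22. The changes that were lost were at most 1.24 in size, and in 4 of 82 such cases the adjusted p was 0.05 or more: Robo1 between D16 and PN in 3 settings and Sema4a between D4 and D0 with quantile normalization. Without a minimum on the change, 25 members were lower at D8 than at D0 (14 with it) and 14 were higher in D16 than in PN (9 with it). Over all 13983 genes tested these counts also rose, to 4197 (2360 with it) and 4741 (2745 with it). Leaving out each library in turn gave 18 to 20 members higher and 12 to 15 lower at D4 than at D0, 17 to 21 and 11 to 19 at D8, 20 to 21 and 13 to 18 at D16, and 28 to 32 and 11 to 17 in PN. D16 against PN gave 8 to 9 higher and 19 to 22 lower. D8 against D4 gave 0 higher and 0 to 1 lower (Efnb2, without D8 replicate 1), and D16 against D8 gave 0 in both directions. The replicate block changed none of the counts of called members, including 0 higher and 0 lower between D8 and D4, where same-numbered libraries deviated together. Quantile normalization moved the median over all genes in PN against D0 to 0.003, against -0.12 without it. The changes given for PN against D0 are not corrected for that shift. Depth limits members near 0 FPKM, for which the scale understates the change.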
